A study of Mus musculus with 6 samples.

Results

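The cytosolic ribosomal proteins are the protein components of the ribosome that translates nuclear-encoded mRNA, as opposed to the separate set used inside mitochondria. Members were the protein-coding genes of the deposited table whose symbol follows the Rpl and Rps naming scheme, with Rplp0, Rplp1, Rplp2, Rpsa and Fau added and the Rps6k kinases left out, which gave 81 of 52636 genes. Of these, 49 encode large subunit and 32 encode small subunit proteins, and they lie on 20 chromosomes, with 14 on chromosome 7. The genes were measured by RNA-seq in the vestibular epithelium, the balance organ of the inner ear, of male 129S1/SvImJ mice that were 2 to 4 months old at the start. The 3 Control mice drank plain water, and the 3 IDPN mice drank water with 30 mM 3,3'-iminodipropionitrile (IDPN), a nitrile toxic to the sensory hair cells (HCs), for 8 weeks. Each library came from 1 animal, whose utricles and cristae were pooled, and all 6 come from the same deposited count table. Libraries are named Control 1 to 3 and IDPN 1 to 3 in the order of deposit, and the numbers do not pair animals across groups. Control 3 stood apart from the other Control libraries in these genes, and results are given with and without it. In the sample titles the 3 Control animals carry one common code number and the IDPN animals others, so treatment and whatever this code stands for cannot be told apart.

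Each ribosome carries one copy of nearly every core protein, and cells keep the production of these proteins in step with each other and with ribosomal RNA. Their mRNAs are short and abundant, and most begin with a cytosine followed by a run of pyrimidines, the terminal oligopyrimidine (TOP) motif, through which mTOR signalling sets their translation. The acidic stalk of the large subunit, built from Rplp1 and Rplp2 on the anchor Rplp0, recruits the translation factors that drive elongation.

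Sequence near the annotated start of the mRNA is shown for members that carry the results below, to let the shared letters be seen. Each window follows a run of pyrimidines, so it need not hold the first base of the mRNA. RefSeq start-site sequences on GRCm38.p6 held 61 of the 81 members. A sense-strand run of at least 8 pyrimidines beginning with C and continuing with C or T in any order was sought within 50 bases on either side of the annotated start. It was found in 52 of 61 members (85.2%) and in 4633 of 16244 other protein-coding genes (28.5%). Capitals mark the longest such run, with up to 10 bases before it and sequence up to 30 bases in all. The first 5 genes below were called lower after IDPN, the next pair are a main copy and its paralog, and the last are members with small fold changes.
Rplp2: gcgtcagcgtCTTCCTTTCgccgccggacg
Rpl37a: cgcattgcgtCCCTTCCTCTTCggacttgg
Rpl38: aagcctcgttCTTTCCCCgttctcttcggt
Rps21: gcacgagctaCTTCCTTTCTgcgctc
Rps12: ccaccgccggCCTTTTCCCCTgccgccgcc
Rps27: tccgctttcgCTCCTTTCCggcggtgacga
Rps27l: cccgcctccaCTCCTCTCCactcctccccg
Rpl15: tgggagaaagCCTTCTTCCTTTCCTCTggc
Rps19: ccccgtcgttCCCTTTCCC
These windows lie on GRCm38.p6 at chr7:141447637-141447666 (plus strand), chr1:72711274-72711303 (plus), chr11:114668570-114668599 (plus), chr2:180257403-180257428 (plus), chr10:23787182-23787211 (minus), chr3:90213631-90213660 (minus), chr9:66946054-66946083 (plus), chr14:18270971-18271000 (minus) and chr7:24884623-24884641 (plus). The run in Rpl38 starts on the first annotated base. Those in Rplp2, Rps27, Rps27l and Rpl15 start 4, 2, 22 and 4 bases before it, and the Rps27l window lies wholly upstream of it. Those in Rpl37a, Rps21, Rps12 and Rps19 start 24, 34, 8 and 41 bases after it. Runs away from the annotated start were not shown to be TOP motifs. The median log2 fold change after IDPN was −0.50 over the 50 expressed members with such a run and −0.43 over the 8 searched without one. CCGGAAG, the core of ETS-type sites, whose reverse complement can overlap a pyrimidine run, was present on either strand of the 300 searched bases in 23 of 61 members (37.7%) and 12.3% of other genes. AAGATGGC, the core of YY1-type sites, was present in 5 members (8.2%) and 3.3% of other genes. TATAAA was present on the sense strand in 5 members (8.2%) and 8.6% of other genes. TATAAG was present there in 8 members (13.1%) and 3.9% of other genes. A match is a description of letters and not of binding.

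Of the 81 members, 78 were expressed, with a mean DESeq2-normalized count between 529 and 54855 (counts divided by a size factor per library). The 3 others are second copies of a main gene and were at or near 0, and they entered no count of expressed members below. They are part of the summed member counts, and Rpl39l and Rpl3l are part of the medians stated over 80 members. Rpl10l, a testis-expressed copy of Rpl10, had 0 counts in all 6 libraries. Rpl39l, a copy of Rpl39 best known from testis, had normalized counts of 1.21, 2.31 and 5.34 in Control 1 to 3 against 8.28, 0 and 1.87 in IDPN 1 to 3. Rpl3l, the copy of Rpl3 that replaces it in heart and skeletal muscle, reached at most 0.933.

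Level per length, the mean normalized count per 1000 bases of the principal transcript, placed Rpl10 first with 44644, ahead of Rps6 with 39885, Rpl13 with 37759.9, Rpl4 with 35667 and Rpl14 with 24702. Rpl10 joins the large subunit last, Rps6 is the small subunit protein phosphorylated downstream of mTOR, and Rpl4 lines the exit tunnel of the nascent chain. Neighbours among the first 4 differed by less than the SD of either over the 6 libraries. Rpl10, for example, had normalized counts of 44945, 48458 and 25998 in Control 1 to 3 against 25608, 37445 and 31568 in IDPN 1 to 3, and Rps6 had 44282, 46860.4 and 27029.5 in Control 1 to 3 against 25530.0, 34682 and 31728 in IDPN 1 to 3. The lower end held Rps15a with 504, Rpl12 with 506 and Rpl29 with 722 per 1000 bases. The value of Rps15a depends on an annotated length of 5179 bases for a coding length of 390, whereas Rpl12 and Rpl29 were also the 2 expressed members with fewest counts.

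**Figure D1:**
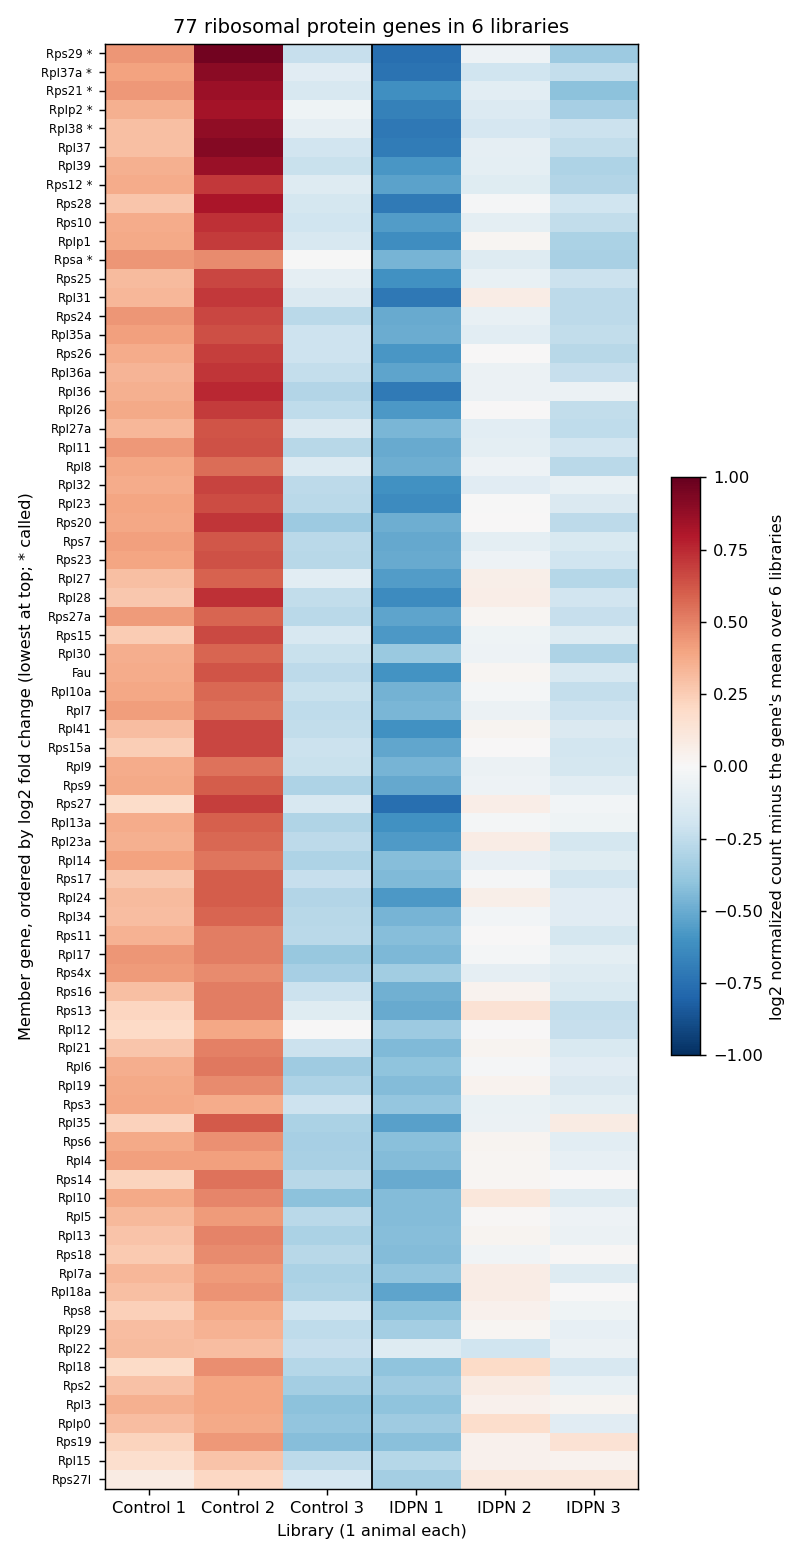
Log2 normalized count of each of 77 of the 78 expressed ribosomal protein genes (rows, ordered by log2 fold change, called genes starred) minus the gene's mean over the 6 libraries (columns, 1 animal each), with red above and blue below the mean. Nearly all rows are red in Control 1 and Control 2 and deepest blue in IDPN 1. Control 3 and IDPN 3 are mostly blue, and IDPN 2 is near the mean.

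Ribosomal protein transcripts had lower estimates after IDPN across the board, and few passed the test one by one. All 78 expressed members had a log2-Fold_Change (IDPN against Control) below 0 in the DESeq2 fit, but when libraries were scaled to their total counts instead 70 were below 0 and 8 above (Rpl22, Rpl18, Rps2, Rpl3, Rplp0, Rps19, Rpl15 and Rps27l). The median was −0.49, with quartiles of −0.58 and −0.38 and a range from −0.83 (Rps29) to −0.07 (Rps27l). Over all 17650 genes tested the median was 0.02 and 48.4% were below 0. Downregulation was called at Padj under 0.05 and a fold change over 1.5 for 8 members, 10.3% of the 78, while 3.42% of all genes tested were called lower. No member was called higher, against 2.32% of all genes. At an unadjusted p under 0.05, 51 members were lower and 0 higher by DESeq2, and 31 were lower and 0 higher by the edgeR quasi-likelihood test. The share of all genes at this unadjusted threshold was not taken. Because the members moved together from library to library, these counts are not separate pieces of evidence. After adjustment edgeR called 0 of the 78, with a lowest adjusted p of 0.0905 for Rplp2. In bulk tissue a smaller number of cells rich in these mRNAs and less of them per cell cannot be told apart.

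The libraries within a group did not agree on the level of these genes. The members moved together from library to library, and the median deviation of a member from its own mean over the 6 libraries, on the log2 scale, was 0.35 in Control 1, 0.58 in Control 2 and −0.25 in Control 3. In IDPN 1, IDPN 2 and IDPN 3 it was −0.50, −0.01 and −0.16. Control 3 therefore lay inside the IDPN range. The group means of these medians were 0.23 ± 0.43 and −0.22 ± 0.25 (SD, n = 3). Control 2 was the highest library for 76 of 78 members and Control 1 for the other 2, and IDPN 1 was the lowest for 74 and Control 3 for 4. Control 1 exceeded every IDPN library for 77 members and Control 2 for all 78. Control 3 was below IDPN 2 for 73 and below IDPN 3 for 54. As a result every IDPN library was below every Control library for only 5 members (6.4%), Rpl37a, Rplp2, Rpl38, Rpsa and Rpl12, fewer in proportion than the 11.4% of all genes tested.

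The call count rested on single libraries. Without Control 3, 53 members were called lower (62 at Padj alone) and the median was −0.69, where 4.5% of all genes tested in those 5 libraries were called lower. Without IDPN 2, 16 were called (background 3.28%). Without Control 1, Control 2, IDPN 1 or IDPN 3, 0 were called, with backgrounds of 2.5%, 2.52%, 3% and 2.75% and medians of −0.45, −0.30, −0.35 and −0.51. In these 5-library fits all 78 estimates stayed below 0 except 2 without Control 2 and 1 without IDPN 1. Size factors ran from 0.825 in Control 1 and 0.866 in Control 2 to 1.12 in Control 3 and 1.21 in IDPN 1, although total counts differed little, from 40474847 to 43566332.

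**Figure D2:**
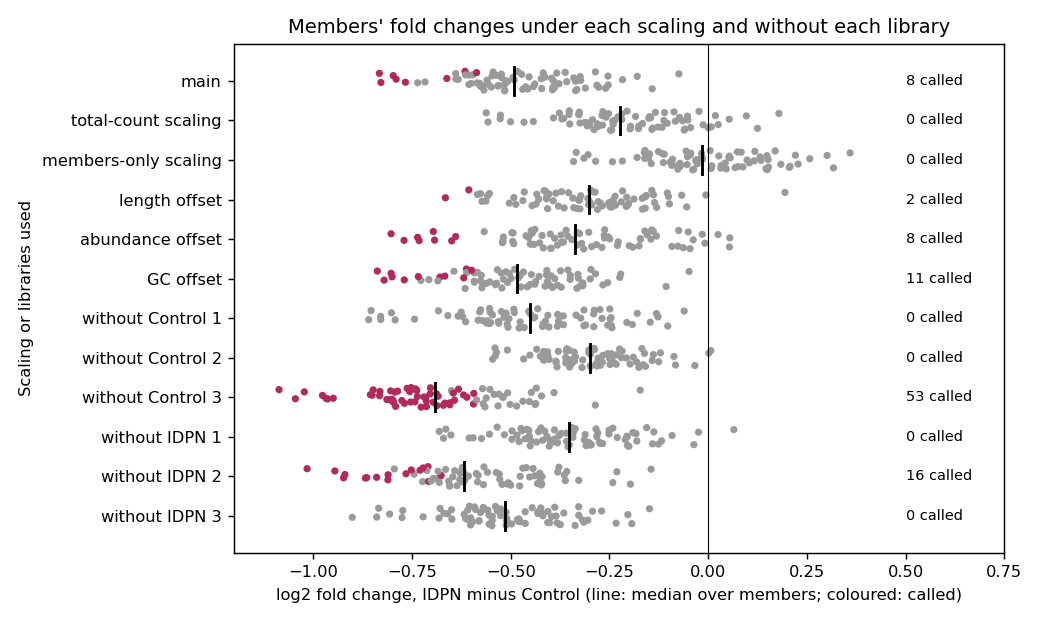
Log2 fold change of the 78 members (points) under the DESeq2 fit, other scalings or offsets and without each library, with the median as a line, called members coloured and their number at the right. Calls run from 0 to 53, with 53 only where Control 3 is left out, and most points are below 0 except under members-only scaling, which sets their centre near 0 by construction.

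The 8 called members were 5 small subunit and 3 large subunit proteins. Values are given for 7 of them. Without Control 3 each of the 8 was called too, with log2-Fold_Changes from −1.09 (Rps29) to −0.75 (Rpsa) among those 7, and without Control 1, Control 2, IDPN 1 or IDPN 3 none was. Rps29, a zinc-binding protein of the small subunit head (chr12:69157722-69159186, minus strand), had normalized counts of 6457, 9312 and 4054 in Control 1 to 3 against 2820.4, 4593 and 3715 in IDPN 1 to 3. Control 3 lay between IDPN 3 and IDPN 2, so the groups overlapped, and the log2-Fold_Change was −0.83 ± 0.26 (SE, DESeq2 Padj = 0.028). Rpl37a, a zinc-finger protein of the large subunit (chr1:72711290-72713813, plus strand), had 4068, 5757 and 2849.7 in Control 1 to 3 against 1845, 2681 and 2610.3 in IDPN 1 to 3. Here the groups did not overlap, by a narrow margin between Control 3 and IDPN 2, and the log2-Fold_Change was −0.83 ± 0.24 (DESeq2 Padj = 0.014).

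Rps21, a small eukaryote-specific protein of the small subunit (chr2:180257377-180258445, plus strand), had normalized counts of 1098, 1469 and 728 in Control 1 to 3 against 530.5, 755 and 609 in IDPN 1 to 3, with Control 3 just below IDPN 2. Its log2-Fold_Change was −0.80 ± 0.25 (DESeq2 Padj = 0.0267). Rpl38, a large subunit protein whose loss of 1 copy gives the Tail-short mouse with skeletal and middle ear defects (chr11:114668524-114672331, plus strand), had 1022, 1539.7 and 782 in Control 1 to 3 against 506, 741 and 719 in IDPN 1 to 3. All IDPN libraries lay below all Control libraries, and the log2-Fold_Change was −0.77 ± 0.25 (DESeq2 Padj = 0.0396).

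Rps12, a protein of the small subunit beak (chr10:23785183-23787275, minus strand), had normalized counts of 1579, 1999 and 1115 in Control 1 to 3 against 842, 1126 and 998 in IDPN 1 to 3, a narrow overlap in which Control 3 fell just under IDPN 2. The log2-Fold_Change was −0.66 ± 0.22 (DESeq2 Padj = 0.0478). Rpsa, which is also known as the laminin receptor precursor (chr9:120127689-120132369, plus strand), had 12907, 13136 and 9472 in Control 1 to 3 against 6885, 8698 and 7593 in IDPN 1 to 3. Its groups did not overlap and its error was the smallest of the 7, with a log2-Fold_Change of −0.62 ± 0.18 (DESeq2 Padj = 0.0133). Just outside the threshold were Rpl37 at −0.74 ± 0.25 (Padj = 0.0549) and Rpl39 at −0.72 ± 0.25 (Padj = 0.0582), large subunit proteins whose values were 1585, 2260.0 and 1064 in Control 1 to 3 against 828, 1158 and 1000.4 in IDPN 1 to 3 for the latter.

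**Figure D3:**
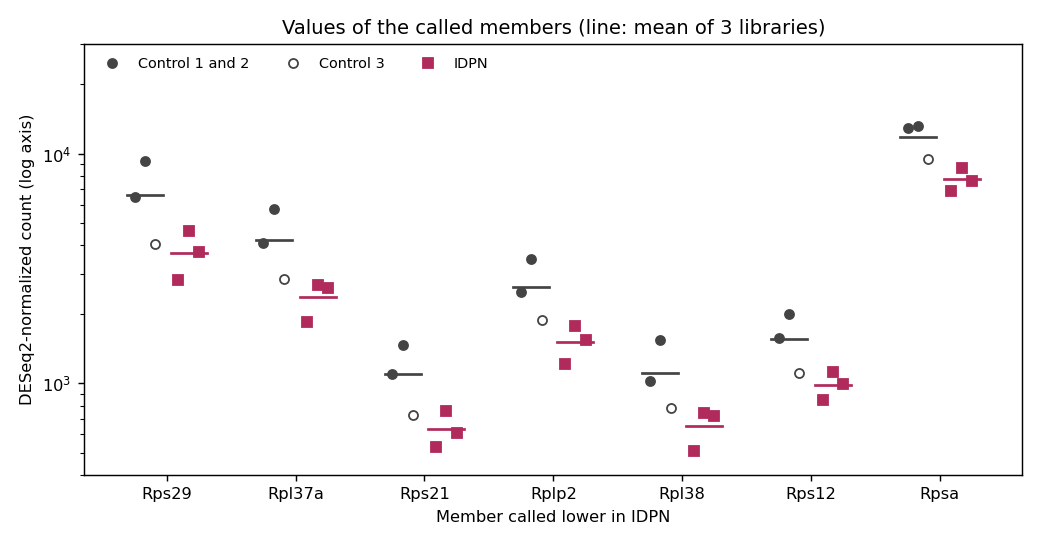
DESeq2-normalized counts (log axis) of 7 of the 8 called members in each library, circles for Control with Control 3 open, squares for IDPN and lines for the means of 3 libraries. Control 1 and Control 2 are above every IDPN library for each gene, and Control 3 is near or among the IDPN libraries.

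**Figure D4:**
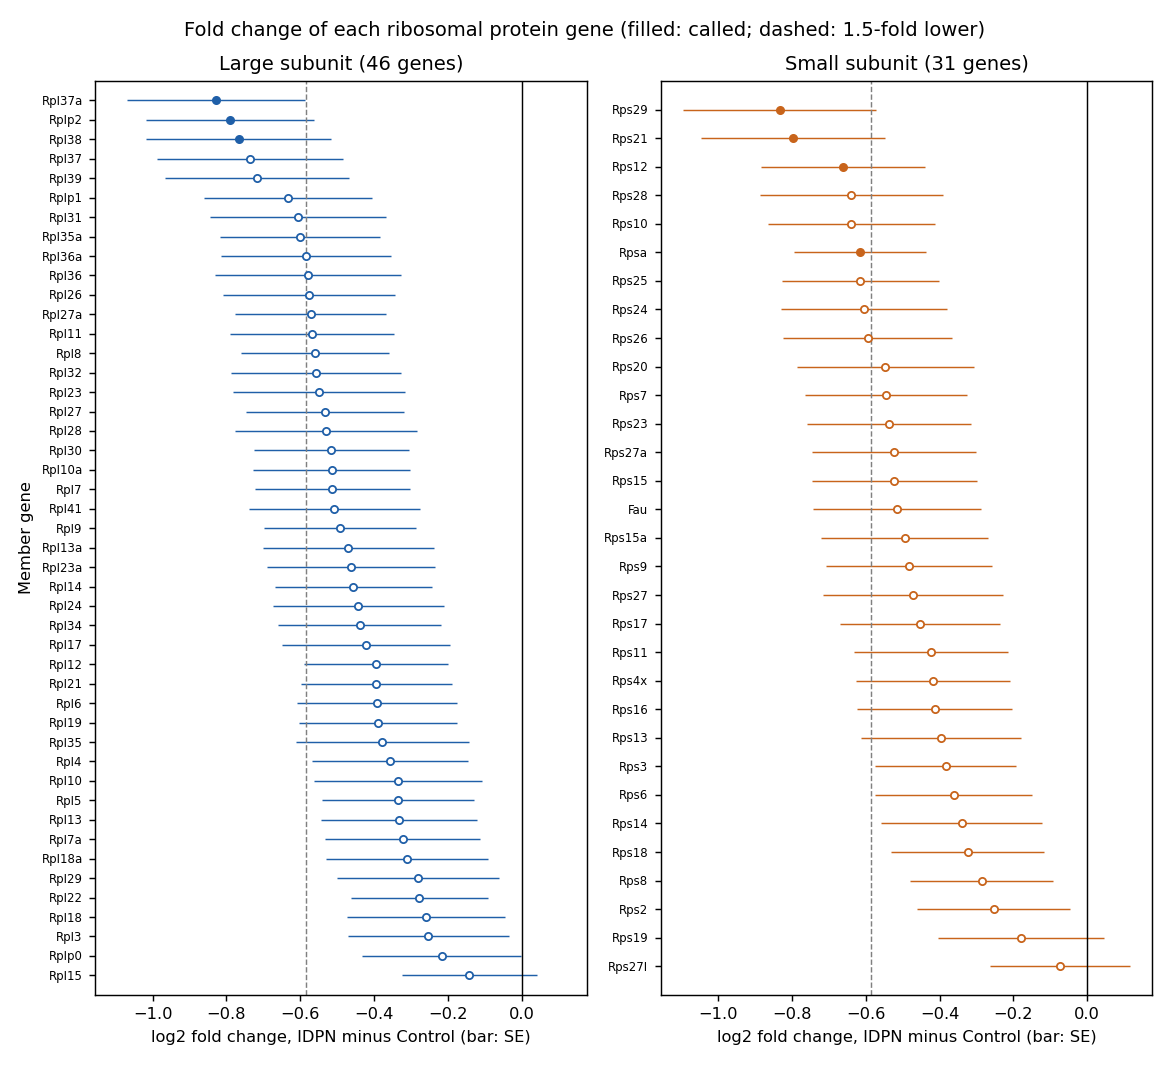
Log2 fold change (IDPN minus Control) with its SE for 77 of the 78 expressed members, 46 of the large and 31 of the small subunit, filled where called, with a dashed line at a 1.5-fold lower level. Every point is below 0, from −0.83 for Rps29 to −0.07 for Rps27l, and neighbours in the order have overlapping errors.

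The stalk proteins differed among themselves. Rplp2, the partner of Rplp1 (chr7:141447370-141451585, plus strand), had normalized counts of 2486, 3467 and 1891 in Control 1 to 3 against 1219, 1772 and 1544 in IDPN 1 to 3. The groups did not overlap, and Rplp2 was called lower at −0.79 ± 0.23 (DESeq2 Padj = 0.0133). Rplp1 had 12379, 15449 and 8509.9 in Control 1 to 3 against 6172, 9619.6 and 7639 in IDPN 1 to 3, with Control 3 below IDPN 2, and a log2-Fold_Change of −0.63 ± 0.23 that was not called (Padj = 0.0711). Rplp0, the anchor, had 37085, 38848 and 22819 in Control 1 to 3 against 23388, 33819.7 and 27756 in IDPN 1 to 3. Control 3 was the lowest library, with IDPN 1 close to it, and the log2-Fold_Change was −0.22 ± 0.22 (Padj = 0.699). The ratio of summed Rplp1 and Rplp2 counts to Rplp0 counts, which no scaling of libraries can change, was 0.401, 0.487 and 0.456 in Control 1 to 3 against 0.316, 0.337 and 0.331 in IDPN 1 to 3. Its means were 0.448 ± 0.044 and 0.328 ± 0.011 (SD, n = 3), and the groups did not overlap, with Control 3 on the Control side. This ratio was chosen after the values were seen and carries no test. Rplp1 and Rplp2 have coding lengths of 342 and 345 bases and Rplp0 of 951, and shorter members had lower fold changes in general. With a transcript length offset in the fit, the log2-Fold_Changes of Rplp1, Rplp2 and Rplp0 were −0.34, −0.67 and −0.17. The part of length in the ratio was not tested.

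The members at the other end had fold changes near 0. Rps27l, a paralog of Rps27 that is also a target of the tumour suppressor Trp53, had normalized counts of 1372, 1495 and 1150.4 in Control 1 to 3 against 1025, 1393 and 1398 in IDPN 1 to 3, with IDPN 2 and IDPN 3 level with Control 1. Its log2-Fold_Change was −0.07 ± 0.19 (Padj = 0.912). Its main copy Rps27 had 7016, 9988 and 5523 in Control 1 to 3 against 3664, 6490.0 and 6085 in IDPN 1 to 3 and a log2-Fold_Change of −0.47 ± 0.24 (Padj = 0.305). The ratio of Rps27l to Rps27 counts within a library was 0.196, 0.150 and 0.208 in Control 1 to 3 against 0.280, 0.215 and 0.230 in IDPN 1 to 3, so that every IDPN library was above every Control library, again without an effect of scaling. The two-sided exact permutation test gave p = 0.1, the smallest that 3 against 3 libraries allow, and 0.35 after adjustment over the 7 per-library quantities that were compared. Reads shared between the 2 copies were divided between them by the authors' estimation.

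Rpl15, a large subunit protein required early in its assembly, had 13872, 15073 and 10324 in Control 1 to 3 against 10152, 12755 and 12687 in IDPN 1 to 3 and a log2-Fold_Change of −0.14 ± 0.18 (Padj = 0.786). Rps19, the gene most often mutated in Diamond-Blackfan anaemia, had 14023, 16256 and 8942 in Control 1 to 3 against 9009, 12348 and 13269.7 in IDPN 1 to 3 and −0.18 ± 0.22 (Padj = 0.778). In both genes Control 3 was the lowest or near the lowest library and the groups overlapped widely. Rpl3, which reaches toward the peptidyl transferase centre, had 24412, 25039 and 14357 in Control 1 to 3 against 14485, 19644 and 19414 in IDPN 1 to 3 and −0.25 ± 0.22 (Padj = 0.635). With Rps27l and Rplp0 these were the 5 highest log2-Fold_Changes among expressed members, and Rps2 was next at −0.25 ± 0.21.

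The fusion proteins had fold changes close to the median of the family. Rps27a, made as a fusion with ubiquitin, had 20474, 22765 and 12623 in Control 1 to 3 against 10520.2, 15367 and 12969 in IDPN 1 to 3 and a log2-Fold_Change of −0.52 ± 0.22 (Padj = 0.163). Fau, made as a fusion of a ubiquitin-like protein with a small subunit protein, had 15694, 18740.0 and 10139.8 in Control 1 to 3 against 8032, 12306 and 10844 in IDPN 1 to 3 and −0.52 ± 0.23 (Padj = 0.191). Rps4x, the X-linked small subunit protein, had 27803, 28661 and 16481 in Control 1 to 3 against 16235, 19489 and 18888 in IDPN 1 to 3 and −0.42 ± 0.21 (Padj = 0.278). In each, Control 1 and Control 2 were above all IDPN libraries and Control 3 was within their range.

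Relatives that the naming rule leaves out had log2-Fold_Changes from −0.43 to −0.01, and none was called. Rps3a1, a core small subunit protein, had normalized counts of 10204, 11146 and 5855 in Control 1 to 3 against 6011, 7359.5 and 6815 in IDPN 1 to 3, with Control 2 highest and Control 3 lowest, and a log2-Fold_Change of −0.43 ± 0.22 (Padj = 0.299). The paralogs Rpl22l1, Rpl36al, Rpl7l1 and Rps27rt had −0.42 ± 0.22, −0.27 ± 0.22, −0.01 ± 0.15 and −0.38 ± 0.29.

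Shorter members had lower fold changes. Coding length was 453 bases in the median over the 78 expressed members and 1383 over the 14677 genes tested that have one. Across members, log2-Fold_Change and coding length had a Spearman's rho of 0.57, a description over 78 genes that share the same 6 libraries, against 0.11 over all genes tested. Coding length also went with abundance across members (rho = 0.67), and log2-Fold_Change with abundance (rho = 0.44). The 26 members with the shortest coding sequences (75 to 399 bases) had a median of −0.60 and included 6 of the 8 calls. The middle 26 had −0.46 with 0 calls, and the 26 longest (564 to 1257 bases) had −0.39 with 2 calls, Rpsa among them. Rpl41, the shortest of all, was at −0.51 ± 0.23 and thus near the median of the whole family.

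Short and long members were also set against each other within each library. The median log2 deviation of the 26 shortest minus that of the 26 longest, in which the scaling of a library cancels, was −0.03, 0.23 and 0.09 in Control 1 to 3 against −0.16, −0.06 and −0.12 in IDPN 1 to 3. The groups did not overlap, with means of 0.10 ± 0.13 and −0.12 ± 0.05 (SD, n = 3). The same difference between 570 other genes with coding sequences no longer than those of the 26 shortest members and 3719 with lengths in the range of the 26 longest was 0.12, 0.18 and −0.03 in Control and −0.16, −0.09 and 0.00 in IDPN. There Control 3 fell among the IDPN libraries. With a smooth offset for transcript length in the fit, the short, middle and long members had medians of −0.39, −0.28 and −0.30, 77 of 78 members were below 0, and 2 members (Rplp2 and Rpsa) were called. These length classes were chosen after fold changes were seen, and the part of transcript length in the result was not tested beyond this offset.

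**Figure D5:**
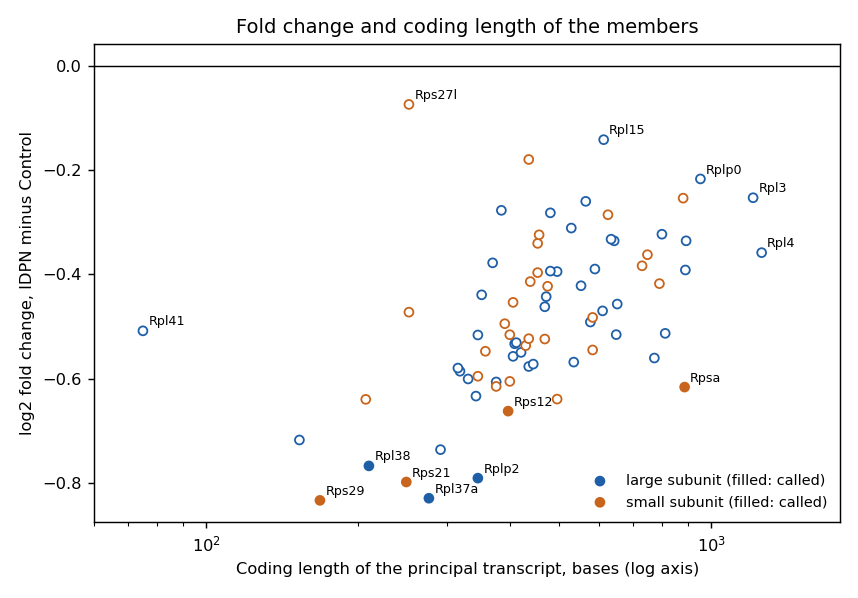
Log2 fold change of 77 of the 78 expressed members (vertical) against the coding length of its principal transcript in bases (horizontal, log axis), coloured by subunit and filled where called. Most called members are at short lengths, and Rps27l and Rpl41 are short members with fold changes nearer 0.

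The subunits differed little in fold change. The 46 expressed large subunit members had a median of −0.48 with 3 calls, and the 32 small subunit members a median of −0.50 with 5 calls. Summed over members, the counts made up 1.83%, 2.16% and 1.57% of all counts in Control 1 to 3 against 1.55%, 1.69% and 1.79% in IDPN 1 to 3. As shares of the library the groups overlapped, with means of 1.85% ± 0.30 and 1.68% ± 0.12 (SD, n = 3). The two-sided exact permutation test of this share gave p = 0.4, and 0.56 after adjustment. The ratio of summed large to small subunit counts was 1.66, 1.63 and 1.62 in Control and 1.67, 1.70 and 1.67 in IDPN, a small difference in which the groups did not overlap. The exact permutation test of this ratio gave p = 0.1, the smallest possible here, and 0.35 after adjustment. The 273 pseudogenes named after these genes took 4.44 to 4.86 counts per 100 member counts in Control and 4.66 to 4.85 in IDPN, and the groups overlapped.

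Other genes of the translation machinery did not share one direction. The list of elongation factors and other genes with TOP mRNAs, 17 in the table, had 0 calls and a median of −0.27, with 17 of 17 below 0 in the DESeq2 scaling but a median of 0.00 under total-count scaling. Eef1a1, the most abundant elongation factor, had normalized counts of 450184, 429863 and 247306 in Control 1 to 3 against 255600.0, 357196 and 311841 in IDPN 1 to 3 and a log2-Fold_Change of −0.29 ± 0.22 (Padj = 0.578), with the low Control 3 seen in the members. Eef2, the translocase, was at −0.30 ± 0.20 (Padj = 0.501).

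Of 33 initiation factors, 1 rose and 1 fell, and the median was 0.08. Eif3b, a scaffold subunit of the largest initiation factor, was upregulated, with 298, 330.1 and 414 in Control 1 to 3 against 532, 625 and 645 in IDPN 1 to 3 and no overlap (0.79 ± 0.21, DESeq2 Padj = 0.00438). Eif4a2, an RNA helicase that unwinds the mRNA leader, was downregulated, with 43424, 37113 and 29181 in Control 1 to 3 against 22378, 23413 and 24921 in IDPN 1 to 3 (−0.63 ± 0.17, DESeq2 Padj = 0.00774). Of 35 ribosome biogenesis factors, only Nop10, a small protein of the pseudouridylation particles, was called, and its values of 2776, 3056 and 2553 in Control 1 to 3 against 1909, 1909 and 1669.6 in IDPN 1 to 3 did not overlap (−0.61 ± 0.16, DESeq2 Padj = 0.00343). The biogenesis median was 0.04. Under total-count scaling Eif4a2 and Nop10 lost their calls (adjusted p = 0.295 and 0.35), Eif3b kept its call (adjusted p = 0.00951), Eif1a was called higher (adjusted p = 0.0146) and the medians of the 2 lists were 0.32 and 0.29. The edgeR test also called Eif3b and Nop10 (adjusted p = 0.0381 and 0.0369) but not Eif4a2 (adjusted p = 0.133).

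No gene was called among 16 genes listed for the control of ribosomal protein mRNA, of which 15 had a Padj. Genes of this list need not act on that mRNA directly. Maf1 was at −0.25 ± 0.17 and Rheb at −0.30 ± 0.21. Among 10 noncoding snoRNA host genes none was called either, with Gas5 at 0.13 ± 0.19 and Snhg5 at −0.07 ± 0.21. Gas5 is itself a TOP transcript. Medians of these lists were 0.14 and 0.12, and both were 0.38 under total-count scaling. The 78 mitochondrial ribosomal proteins had a median of −0.10 and 1 call, Mrps6 at −0.90 ± 0.18 (DESeq2 Padj = 4.46e-05). The 82 tested respiratory chain subunits, whose coding sequences are similarly short (median 426 bases), had a median of −0.26 and 3 calls lower, Atp5e (−0.68 ± 0.22), Atp5h (−0.62 ± 0.19) and Ndufa1 (−0.62 ± 0.16). Under total-count scaling the medians of these 2 lists were 0.16 and 0.01, with 1 and 0 calls, and edgeR called 1 gene of each.

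Some marker genes of the cells in the tissue also differed between the groups, and their part in the members' values was not tested. Of 14 HC markers, all detected, 9 were called lower, and their summed normalized counts were 794085 to 1042330 in Control and 584055 to 786013 in IDPN, most of it Spp1. Of 10 supporting cell markers 2 were called lower (Gjb6 and Sparcl1), with sums of 454121 to 664333 and 340063 to 409947. Of 10 macrophage markers 1 was called higher (Lyz2), with sums of 5837 to 7545 and 8333 to 12800.4. Of 8 Schwann cell markers 1 was called higher (Sox10), but 5 were below 0 and the list median was −0.34. Their sums of 114431 to 241272 and 98821 to 119996 overlapped. Of 6 stroma markers 0 were called, with overlapping sums of 20441 to 39051 and 35993 to 38675. Of 5 erythroid markers 4 were called higher, with overlapping sums of 16166 to 36635 and 34689 to 49091. The edgeR test called 8 HC markers and 1 Schwann cell marker and 0 of the supporting cell, macrophage, stroma and erythroid markers, and under total-count scaling 5 HC, 1 supporting cell, 2 macrophage, 1 Schwann cell, 1 stroma and 5 erythroid markers were called. No marker of these lists was at 0 in every library. Mitochondrially encoded transcripts took 13.0%, 11.2% and 10.1% of counts in Control 1 to 3 against 8.48%, 8.15% and 9.92% in IDPN 1 to 3.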

How the data were processed

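Vestibular epithelium of 3 Control and 3 IDPN mice was sequenced with a SMART-seq2 protocol, which primes polyadenylated RNA with oligo-dT and carries no molecular identifiers. The authors aligned reads with STAR 2.5.3a to GRCm38 and estimated counts with RSEM 2.3.0 on a GENCODE annotation, and deposited these expected counts as whole numbers without normalization. Reads matching more than 1 gene were apportioned by RSEM, so members with near-identical copies have an uncertain split. Here all 52636 genes were fitted with the DESeq2 Wald test (DESeq2 1.42.0, R 4.3.3) without covariates, with Benjamini-Hochberg adjustment over all genes tested, and called at the study's thresholds (Padj under 0.05, fold change over 1.5). edgeR 4.0.16 was the alternative test. Lengths, positions and principal transcripts came from GENCODE M21 on GRCm38, a later release than the authors' annotation. Members were described where the mean normalized count was at least 100. Genes were named by rule: called members, the 5 lowest and 5 highest fold changes, extremes of level per length, stalk, fusion and second-copy members with their main copies, near relatives and, per list, called genes or the 2 most abundant. The members, lists and rules were chosen with earlier results of these data known. The DESeq2 and edgeR fits were tested on simulated data. Total counts of 40474847 to 43566332 per library set the counting precision, and intervals from counting alone would be too narrow. Code for single values was Python 3.11.15 with scipy 1.17.1. One called member and 1 relative are not reported here.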

Additional observations from a re-analysis of the deposited data

How the results depend on the processing

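The count of members called lower was 8 in the DESeq2 fit. It moved to 0 under edgeR, total-count scaling and the test against a fold change of 1.5. Size factors from the members alone (added after seeing the data) gave 0 too. The count moved to 2 with a transcript length offset and to 5 with independent filtering off. It stayed at 8 with size factors without the members and with the abundance offset, and was 11 with the GC offset. Requiring at least 10 counts in 3 samples gave 7, as did protein-coding genes only. The share of all genes called under these other settings was not taken. The count ran from 0 to 53 when 1 library was left out. At Padj alone the count of 8 moved to 0 under edgeR, total-count scaling and members-only size factors. It moved to 4 with the length offset and to 5 without independent filtering. It was 11 with the GC offset and 9 with the abundance offset, and ran from 0 to 62 when 1 library was left out. Medians here are over the 80 members with a fitted fold change, the 78 expressed with Rpl39l and Rpl3l. The median of −0.49 went to −0.015 under members-only size factors, which centre the members by construction. It was −0.22 under total-count scaling, which put the median of all genes tested at 0.27, a gap of −0.48 between them. It was −0.30 with the length offset and −0.33 with the abundance offset, and ran from −0.69 (without Control 3) to −0.29 (without Control 2) when 1 library was left out. Calls over the translation lists went from 3 to 2 under edgeR (Eif3b and Nop10) and to 2 under total-count scaling (Eif3b and Eif1a, both higher). The difference in summed member share, −0.176 percentage points, ran from −0.32 to −0.0214 when 1 library was left out, the latter without Control 2. No paired analysis was possible because the labels carry no replicate numbers that groups share.

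Total counts were similar in all libraries, but the breadth of detection was not. A count of 10 was reached by 15701, 15812 and 16405 genes in Control 1 to 3, against 16812, 16208 and 16442 in IDPN 1 to 3. Control 1 and Control 2, with the highest member levels, thus detected the fewest genes, and IDPN 1, with the lowest, the most. The part of this difference in the members' values was not tested. The call count depended on which library was left out, above all Control 3. Spread among animals and differences in library quality or composition cannot be told apart here. Fold changes are relative to the size factors, and an equal change of all mRNAs would not be seen. The length, abundance and GC offsets came from the same libraries as the test.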
